A study of Solanum lycopersicum with 3 samples.

Results

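Tandem HSFA1a sites were defined as pairs of neighbouring binding peaks separated by at most 1000 bp of DNA. The pairs were selected on the peak positions of the replicate 1 list, and those positions are measured values. Peaks on the 12 numbered tomato chromosomes were put in order, and neighbours with a gap of at most 1000 bp, from the end of a peak to the start of the next, were taken as a pair. Peaks in runs of 3 or more joined by gaps of at most 5000 bp were left out. This gave 600 pairs, or 1200 of 24164 peaks (4.97%). The list held 953 gaps of at most 1000 bp, and the remaining 353 lay in longer runs. All values from replicate 1 describe the list that chose the pairs and are given with no test. The study reports fewer putative HSFA1a binding sites than this list has peaks, and the list was not reduced to them here.

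The binding data came from AmpDAP-seq, in which a tagged protein is fixed on beads and pulls fragments from a library of naked, amplified genomic DNA. The protein was tomato HSFA1a fused to the Halo tag and made in wheat germ extract, and the DNA came from leaves of 4-week-old plants of the cultivar M82 kept at 24 °C with 16 h of light. The 3 samples of the series were 2 biological replicates of HSFA1a-Halo-tag and 1 Halo-tag sample, and the last was not analysed here. Plants were not compared between treatments, and the DNA carried no chromatin, so the values describe binding in the tube.

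Heat shock factors are transcription factors, and in plants those of class A switch on chaperone genes when proteins unfold in the heat. They bind as trimers to heat shock elements, which are arrays of short inverted repeats with the core GAA, and each subunit contacts a repeat unit. In several organisms neighbouring heat shock elements are known to be occupied cooperatively. HSFA1a is the factor that starts the response in tomato, and a pair of close peaks is a place where the protein can meet the same stretch of DNA at more than a single site. Positions below are on the M82 assembly, counted from 1, and the genes and sequences at the pairs were not analysed here.

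The libraries differed in estimated depth. Fold enrichment is the ratio of the pileup, the number of tags stacked at the summit, to the local background, each with 1 added. Replicate 1 pileups carry a factor of 0.981, so they are given here in scaled tags. Pileup and background were recovered from the deposited fold enrichment and p-value at 100% of the summits listed in each replicate, so a partner with no overlapping replicate 2 peak has no replicate 2 value. Replicate 2 held an estimated 25.8% of the depth of replicate 1, from the lowest background and the shortest peak width of each list. Reads were not counted. The replicate 2 list had 14606 peaks on the numbered chromosomes. The replicates are described side by side, and no test between them was made.

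The 5 strongest pairs, taken by the fold enrichment of the weaker partner among pairs with both partners called in replicate 2, were each stronger than most sites of the list. The first lay on chromosome 11, with peaks at positions 29406351 to 29406598 and 29406970 to 29407235. Its left and right partners had fold enrichments of 12.9 and 15.9 in replicate 1, and 9.39 and 15.8 in replicate 2. Both stood on backgrounds of 7.16 tags in replicate 1 and 1.66 tags in replicate 2, which round to the lowest of each list. The right partner was the higher in both libraries. Their summits stood 621 bp apart in replicate 1 and 624 bp apart in replicate 2.

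The second pair, on chromosome 10 at 1272458 to 1272720 and 1272817 to 1273090, was the closest of the 5, with summits 357 bp apart in replicate 1 and 388 bp in replicate 2. Its fold enrichments were 12 on the left and 15.6 on the right in replicate 1, and 10.3 and 8.09 in replicate 2. The order of the partners by fold enrichment therefore turned between libraries. By pileup the left partner was the higher in both, with 144 tags against 127 for the right partner in replicate 1 and 36 against 22 in replicate 2. The background under the left partner was 11.1 tags in replicate 1, against 7.16 tags under the right partner.

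On chromosome 8, a pair at 17804859 to 17805213 and 17805394 to 17805764 had fold enrichments of 13.05 and 11.8 in replicate 1, and 14.2 and 10.9 in replicate 2. On chromosome 7, a pair at 45904799 to 45905073 and 45905490 to 45905774 had 12.3 and 11.4 in replicate 1, and 9.30 and 13.3 in replicate 2. On chromosome 3, a pair at 56419226 to 56419524 and 56419662 to 56419907 had 15.1 and 11.4 in replicate 1, and 16.6 and 7.33 in replicate 2. The left partner was the higher in both libraries on chromosomes 8 and 3, and the order turned on chromosome 7. In replicate 1 the partners of all 5 pairs differed by at most 1.33-fold. Ranking by the weaker partner favours even pairs, so this evenness follows at least in part from the choice.

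Summits of the 600 pairs stood 230 to 1296 bp apart, with a median of 765.5 bp and quartiles of 555.5 and 982.5 bp. The gaps ran from 72 to 1000 bp with a median of 538 bp. In steps of 100 bp, 16 pairs had a gap of up to 100 bp and 72 had a gap of 101 to 200 bp. The other steps held 49 to 80 pairs, with the most at 701 to 800 bp. The counts were thus spread over the whole range, and only the shortest step was thin. No consecutive peaks of the list had a gap below 72 bp, so that step was filled over part of its width only. Among all 2878 runs of exactly 2 peaks, 600 had a gap of up to 1000 bp, 693 had over 1000 to 2000 bp, 572 had 2000 to 3000 bp, 477 had 3000 to 4000 bp and 536 had 4000 to 5000 bp. Gaps below 1000 bp were therefore about as frequent as those of the next 4 steps. The peaks of the pairs were 211 bp wide in the median (quartiles 177 and 251 bp).

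**Figure D1:**
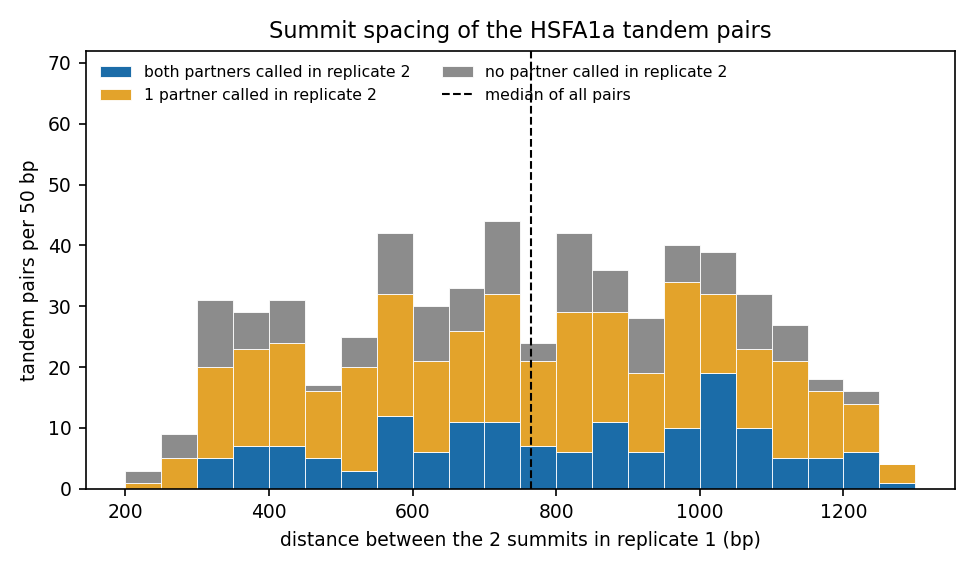
Number of tandem pairs (y axis, per 50 bp) by the distance between the 2 summits in replicate 1 (x axis, bp), stacked by whether replicate 2 called both partners (blue), 1 partner (orange) or none (grey). The dashed line is the median of 765.5 bp, and no spacing class dominates between the quartiles of 555.5 and 982.5 bp.

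The 3 closest pairs lay on chromosomes 12 and 2. The first, on chromosome 12 at 21386635 to 21386854 and 21386927 to 21387102, had summits 230 bp apart and fold enrichments of 3.22 and 2.94. The second, at 17541642 to 17541793 and 17541902 to 17542061 of the same chromosome, had summits 234 bp apart and fold enrichments of 3.12 and 3.45. All 4 of these peaks were weak, and replicate 2 called none of them. The third, on chromosome 2 at 2862565 to 2862781 and 2862862 to 2863118, had summits 235 bp apart and unequal partners of 2.33 and 6.54, of which replicate 2 called the stronger at 7.34.

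The 2 widest pairs were on chromosomes 12 and 10. The pair on chromosome 12 at 45859188 to 45859544 and 45860520 to 45860689 had summits 1296 bp apart and fold enrichments of 5.21 and 2.71, and replicate 2 called only the left partner. The pair on chromosome 10 at 53965192 to 53965663 and 53966446 to 53966792 had summits 1289 bp apart and fold enrichments of 10.002 and 11.2. Replicate 2 called both of its partners, with summits 1191 bp apart.

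The limit of 1000 bp ran through a range with many pairs on either side. Just inside it, with gaps of exactly 1000 bp, lay a pair on chromosome 1 at 14731179 to 14731491 and 14732492 to 14732759, with fold enrichments of 5.91 and 11.2, and a pair on chromosome 2 at 17748497 to 17748653 and 17749654 to 17749913, with 2.64 and 4.30. Replicate 2 called both partners on chromosome 1 and the right partner on chromosome 2. Just outside it lay a pair on chromosome 5 at 3195312 to 3195564 and 3196566 to 3196768, with a gap 1 bp over the limit and fold enrichments of 2.62 and 6.42. The next was on chromosome 4 at 34828889 to 34829154 and 34830157 to 34830310, with a gap 2 bp over the limit and fold enrichments of 9.42 and 2.84. Replicate 2 called 1 partner of each.

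The peaks of tandem pairs were slightly weaker than the other peaks of the list. Their median fold enrichment was 4.48 (quartiles 3.35 and 6.89), against 4.95 in wider pairs, which are runs of exactly 2 peaks with a gap of over 1000 and up to 5000 bp. It was 4.69 in lone peaks with no neighbour within 5000 bp, and 5.04 in runs of 3 or more. Median pileups were 55.9 tags in tandem pairs, against 62.8 in wider pairs, 58.9 in lone peaks and 63.8 in the longer runs. Median backgrounds were 11 tags in tandem pairs, against 11.1 in wider pairs, 11 in lone peaks and 11.3 in the longer runs. The medians thus differed in the tags at the summit and hardly in the background. Each set spanned a wide range, from 1.598 to 20.1 in tandem pairs, and the ranges overlapped almost fully.

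Partners of a pair were no more alike in strength than peaks far apart. The stronger partner had a median fold enrichment of 6.26 and the weaker 3.54. The median ratio of stronger to weaker was 1.63, which is an absolute log2 ratio of 0.71 (quartiles 0.36 and 1.21). Fold enrichments differed by 2 times or more in 199 of 600 pairs (33.2%, 95% Wilson interval 29.5 to 37.0%), and by less than 1.2 times in 110 pairs (18.3%, 15.4 to 21.6%). The quartiles of the ratio were 1.29 and 2.32.

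Random pairs were replaced by all 25021676 possible pairs of replicate 1 peaks that share a chromosome, so that nothing was drawn. Their median absolute log2 ratio was 0.73 (quartiles 0.34 and 1.25), against 0.71 in tandem pairs, and 35.7% of them differed by 2 times or more. Over consecutive peaks, where each class starts above its lower limit, those with gaps of 1000 to 2000 bp had 0.70, those with 2000 to 5000 bp 0.67, those with 5000 to 10000 bp 0.69, those with 10000 to 50000 bp 0.71 and those farther apart 0.69. All of these medians lay between 0.67 and 0.73, with the tandem pairs inside that range. Over the 600 tandem pairs, the correlation of log2 fold enrichment between left and right partners, taken in both orders, was 0.04 by Pearson's r. All points come from 1 library, and partners share part of their local background.

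The background under the partners was more alike than their strength. Its correlation between partners, on the log2 scale and taken in both orders, was 0.38 over the 600 tandem pairs, against 0.24 at gaps of 1000 to 2000 bp, 0.26 at 2000 to 5000 bp, 0.16 at 5000 to 10000 bp, 0.07 at 10000 to 50000 bp and 0.06 beyond. The median absolute log2 ratio of the background was 0.34 in tandem pairs and 0.47 over all consecutive peaks. The peak caller takes its background from windows around each peak, and close partners share part of them. Pileups alone had a correlation of 0.08 and a median absolute log2 ratio of 0.69 in tandem pairs. Partner strength was therefore as dissimilar without the background as with it.

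**Figure D2:**
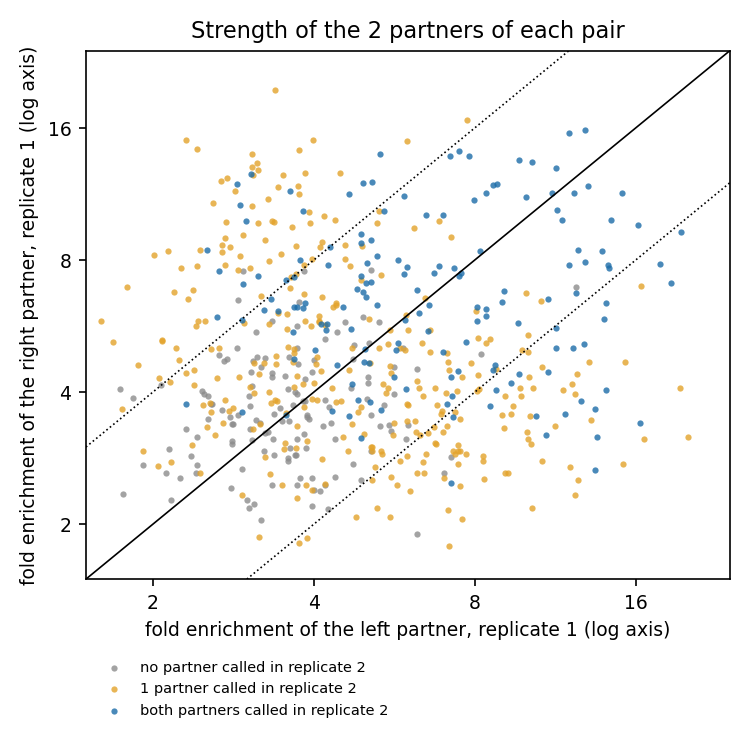
Fold enrichment of the left partner (x axis) and the right partner (y axis) of each of the 600 tandem pairs in replicate 1, both on log axes, coloured by the calls in replicate 2. The solid line marks equal partners and the dotted lines a 2-fold difference, and 199 pairs lie on or beyond the dotted lines.

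The difference between partners was larger than the counting error in most pairs. The tags at the 2 summits differed by more than 2 counting errors in 363 of 600 pairs (60.5%, 56.5 to 64.3%). It was also larger than the difference of a site between libraries: the 615 partners called in replicate 2 had a median absolute log2 ratio of 0.26 between the replicates. That value covers only sites called in both lists, which are the stronger ones. The stronger partner was on the right in 306 of 600 pairs (51.0%, 47.0 to 55.0%). The medians were 4.45 for left and 4.49 for right partners, so strength showed no side.

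The 3 most unequal pairs joined a site of the highest class of strength to a site of the lowest. On chromosome 4, the peaks at 38928410 to 38928566 and 38929083 to 38929372 had fold enrichments of 2.31 and 15.1, a ratio of 6.52, from pileups of 24.5 and 177 tags. Also on chromosome 4, the peaks at 18529993 to 18530277 and 18530655 to 18530833 had 20.1 and 3.16, a ratio of 6.34. On chromosome 12, the peaks at 18853923 to 18854107 and 18854852 to 18855128 had 2.42 and 14.3, a ratio of 5.94. Replicate 2 called only the stronger partner of each, at fold enrichments of 12.8, 13.7 and 13.04.

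Replicate 2 overlapped 615 of the 1200 partners by at least 1 bp (51.3%, 48.4 to 54.1%), against 55.9% of all replicate 1 peaks. The share was 58.6% in wider pairs (57.2 to 60.0%), 55.1% in lone peaks (54.3 to 55.9%) and 58.4% in runs of 3 or more (56.4 to 60.3%). Tandem partners thus had the lowest share of the 4 classes. Left partners were called in 317 of 600 pairs (52.8%) and right partners in 298 (49.7%). The intervals cover counting error only, and partners of a pair are not independent samples.

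By pair, replicate 2 called both partners in 153 of 600 pairs (25.5%, 22.2 to 29.1%), against 31.8% of all consecutive replicate 1 peaks. It called 1 partner in 309 pairs (51.5%, 47.5 to 55.5%) and none in 138 (23.0%, 19.8 to 26.5%). Over all consecutive peaks, longer runs included, the share with both called was 37.8% at gaps of 1000 to 2000 bp (34.9 to 40.7%), 35.4% at 2000 to 5000 bp, 32.1% at 5000 to 10000 bp, 30.8% at 10000 to 50000 bp and 31.3% beyond. These classes hold peaks of longer runs, which the tandem pairs leave out. Wider pairs leave them out as well, and had both called in 828 of 2278 (36.3%, 34.4 to 38.3%). With longer runs included, 29.1% of the 953 pairs with gaps of at most 1000 bp had both called (26.3 to 32.03%), and this interval holds the 31.8% of all consecutive peaks.

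The calls of the partners showed little dependence on each other. If each partner were called at the share of 51.3% regardless of the other, 26.3% of pairs would have both called, 49.97% would have 1 and 23.8% would have none. A partner was called in 306 of 615 cases (49.8%) where the other partner was called, and in 309 of 585 cases (52.8%) where it was not. Each pair enters these cases through both of its partners, so the shares are given with no interval. No replicate 2 peak covered both partners of a pair (0 of 600). Only the 153 pairs with both partners called could show this, and replicate 1 had already separated their sites. Sites that replicate 1 joined into a single peak are not among the pairs, so how well close sites are resolved was not tested.

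**Figure D3:**
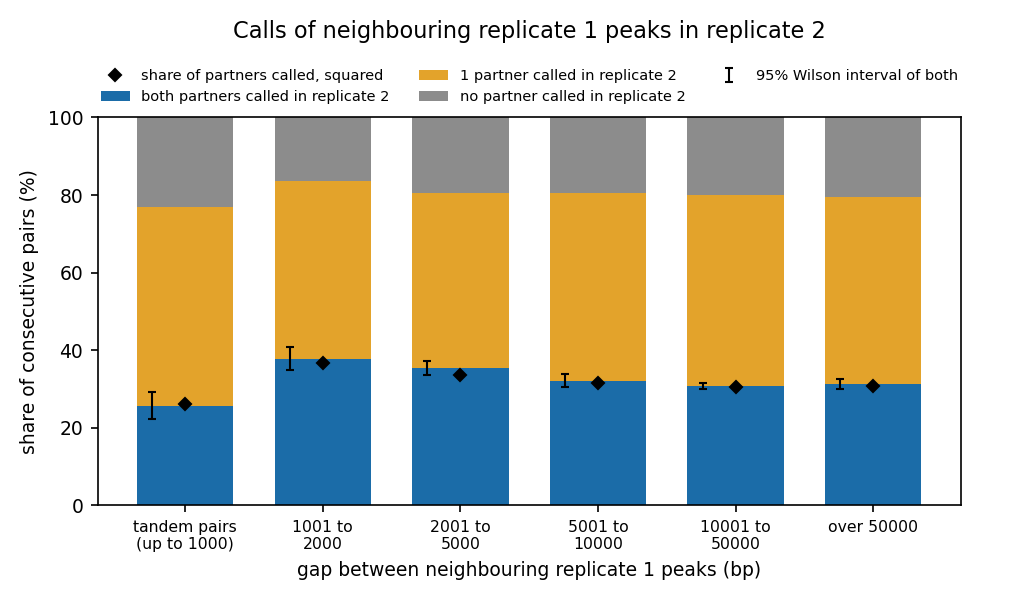
Share of consecutive replicate 1 pairs (y axis, %) with both (blue), 1 (orange) or no (grey) partner called in replicate 2, by gap (x axis, bp). Tandem pairs are at the left, followed by all consecutive peaks with gaps over 1000 bp in order of gap. The 353 gaps of at most 1000 bp in longer runs are not shown. Bars with caps are 95% Wilson intervals of the share with both called, diamonds are the squared share of partners called, and the tandem pairs stand at 25.5% against 37.8% for the next class.

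Calling followed the strength of the peak. With all replicate 1 peaks cut into 5 equal classes of fold enrichment, tandem partners were called at 13.1% in the lowest class (fold enrichment up to 3.21), against 16.0% for all other peaks. In the second class the shares were 29.3% for tandem partners and 30.6% for other peaks, and in the third 47.6% and 52.5%. In the fourth they were 83.3% for tandem partners and 83.0% for other peaks, and in the highest class (from 8.30) 99.0% and 97.7%. The interval of tandem partners held the share of other peaks in all 5 classes.

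Tandem partners were also distributed differently over these classes, with 22.3% in the lowest and 16.3% in the highest. Giving each partner the share of the other peaks in its class led to 52.9% of partners called, against the measured 51.3%. Multiplying the shares of the partners in each pair gave 27.7% with both called, against the measured 25.5%, and 22.0% with none, against the measured 23.0%. Both measured pair shares had intervals that held these values.

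**Figure D4:**
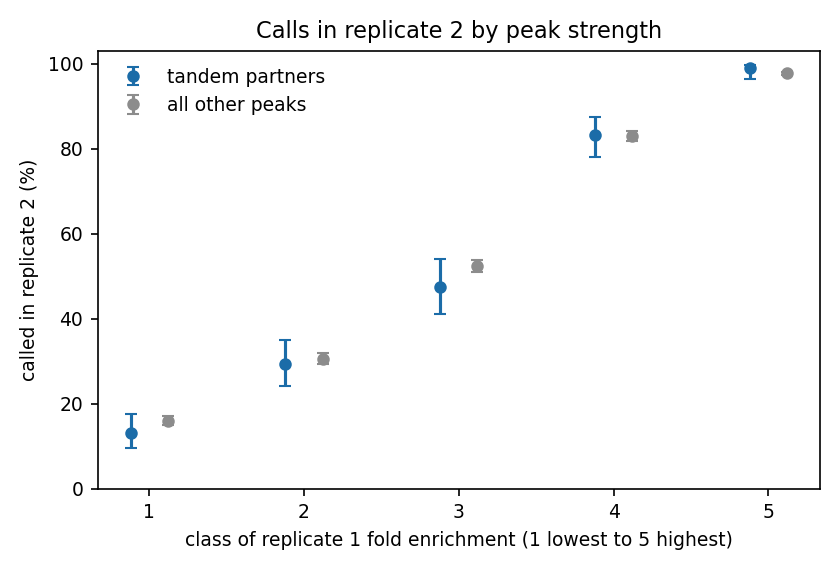
Share of peaks called in replicate 2 (y axis, %) for tandem partners (blue, left of each class) and all other replicate 1 peaks (grey), in 5 equal classes of replicate 1 fold enrichment (x axis). Bars are 95% Wilson intervals, and the tandem partners go from 13.1% in the lowest class to 99.0% in the highest, close to the other peaks.

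In pairs with 1 partner called, the called partner was the stronger in 273 of 309 (88.3%, 84.3 to 91.5%). Its median fold enrichment was 6.54, against 3.38 for the partner not called, and its median pileup was 82.4 tags, against 42.2. It was the left partner in 164 of 309 pairs (53.1%, 47.5 to 58.6%). These pairs were the most unequal of the 3 kinds, with a median absolute log2 ratio of 0.96.

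Where both were called, the weaker partner had a median fold enrichment of 4.95 and the stronger 8.41, and the absolute log2 ratio was 0.65. Where none was called, the weaker had 3.07 and the stronger 4.07, and the absolute log2 ratio was 0.38. At the medians these pairs were the weakest and the most even of the 3 kinds, but they ranged up to 12.4 in the stronger partner and up to 1.72 in the absolute log2 ratio. Their nearest replicate 2 summit was at least 3401 bp away, with a median distance of 24359.5 bp. Not called partners were also narrower, with a median width of 181 bp against 243 bp for called partners, while the background medians were 10.9 and 11.1 tags.

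The 3 strongest pairs with no partner called, by the weaker partner, had pileups of 42.2 to 100.1 tags, against a median of 42.2 tags over all 585 partners not called. On chromosome 2, peaks at 9661712 to 9661958 and 9662753 to 9663022 had fold enrichments of 12.4 and 6.93 from pileups of 100.1 and 76.5 tags, and the nearest replicate 2 summit was 25157 bp from the left one. On chromosome 8, peaks at 53229979 to 53230229 and 53231097 to 53231375 had 5.29 and 5.77, from 42.2 and 46.1 tags. On chromosome 4, peaks at 12359487 to 12359677 and 12360090 to 12360286 had 5.13 and 7.58, from 50.03 and 74.6 tags. The left partner on chromosome 2 belonged to the highest class of strength, in which 194 of 196 tandem partners were called.

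Among the 600 pairs, the closest and the widest differed in their calls in replicate 2, with no steady trend between them. Of the 74 pairs with summits up to 400 bp apart, 16.2% had both partners called (9.53 to 26.2%) and 41.9% of their partners were called. Of the 135 pairs with summits over 1000 bp apart, 34.1% had both called (26.6 to 42.4%) and 57.8% of partners were called. The 3 classes between them had 23.9%, 26.5% and 22.6% with both called, in order of spacing. Of the 263 pairs with gaps of at most 500 bp, 25.1% had both called and 22.1% none, against 25.5% and 23.0% of all 600. Median fold enrichments were 4.57 in the closest class and 4.68 in the widest, and 4.39 to 4.46 between them. The median spacing was 820 bp where both were called, 758 bp where 1 was called and 740 bp where none was called. The intervals of the closest and the widest class did not overlap, and all other classes overlapped with each other. The spacing classes were not tested.

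For the 153 pairs with both partners called, the spacing could be measured in both libraries. Because each partner had to overlap a replicate 2 peak, the matching itself limits how far the spacing can differ. The median was 803 bp in replicate 2 (244 to 1255 bp), against 820 bp in replicate 1 (304 to 1289 bp). The absolute difference of a pair between libraries was 17 bp in the median, with quartiles of 8 and 34 bp and a largest value of 188 bp. It was at most 20 bp in 88 pairs (57.5%, 49.6 to 65.1%) and at most 50 bp in 133 (86.9%, 80.7 to 91.4%). The signed difference, replicate 2 minus replicate 1, had a median of 0 bp and quartiles of -18 and 16 bp.

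The partner that was stronger in replicate 1 was mostly the stronger in replicate 2 as well. Pileups were used here, since they come from the tags of each library alone. Leaving out 3 pairs with equal pileups, 126 of 150 pairs had the same stronger partner (84.0%, 77.3 to 89.0%). With a replicate 1 ratio of at least 1.5 it was 84 of 88 pairs (95.5%), with at least 2 it was 39 of 40 (97.5%), and with less than 1.5 it was 42 of 62 (67.7%). The log2 pileup ratio, right over left, had a Pearson's r of 0.86 and a Spearman's rho of 0.85 between the libraries over 153 pairs, each of which rests on the same DNA sites. Pairs enter this count only if both partners reached the calling limit in replicate 2. The median absolute log2 pileup ratio was 0.65 in replicate 1 and 0.55 in replicate 2, and the median pileups were 84.4 and 25 tags.

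**Figure D5:**
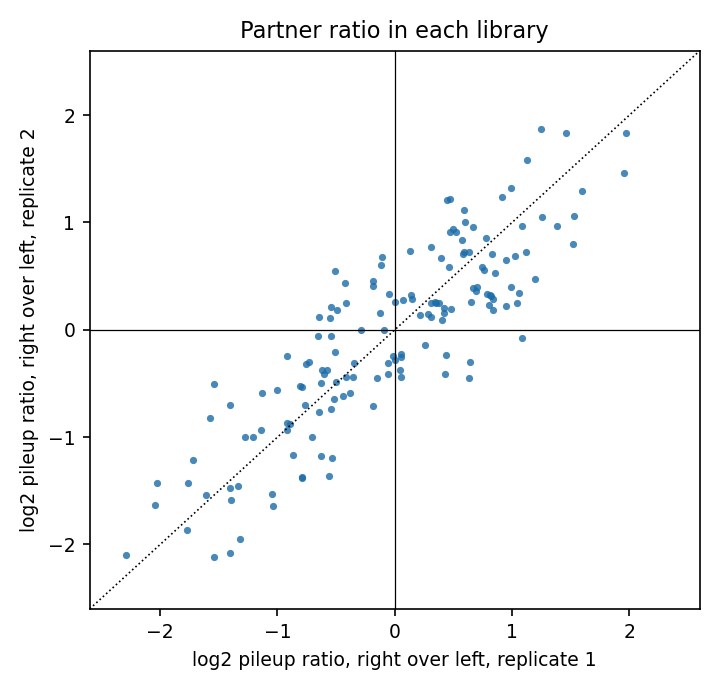
Log2 ratio of the pileup of the right partner to that of the left partner in replicate 1 (x axis) and replicate 2 (y axis) for the 153 pairs with both partners called. The dotted line marks equal ratios, and 126 of 150 pairs without a tie lie in the quadrants where the same partner is the stronger.

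Applied to replicate 2 on its own, the same rule formed 263 pairs, or 3.60% of its peaks. Replicate 1 overlapped both partners in 202 of them (76.8%), 1 partner in 54 and none in 7. The same 2 sites formed a tandem pair in both lists in 145 cases, which is 55.1% of the replicate 2 pairs (49.1 to 61.0%) and 24.2% of the 600 replicate 1 pairs. Of the 57 other replicate 2 pairs with both partners overlapped, 44 lay in a longer run of replicate 1 and 13 fell within a single replicate 1 peak. Of the 8 pairs with both partners called that were no pair in replicate 2, 4 had a replicate 2 gap over 1000 bp and 4 lay in a longer run there. Of the 600 replicate 1 pairs, replicate 2 called 1 partner in 309 and none in 138. Most replicate 1 pairs that were no pair in replicate 2 therefore lacked a called partner there. Longer runs of replicate 1 held most of the 57 replicate 2 pairs named above.

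Tandem pairs were found on all 12 chromosomes. Their number was lowest on chromosome 6, with 30 pairs (0.575 per Mb of covered extent), and highest on chromosome 9, with 69 (1.00 per Mb). They made up 4.30% of the peaks on chromosome 4 and 5.97% on chromosome 9. The share with both partners called ran from 10.4% on chromosome 12 (5 of 48 pairs) to 36.7% on chromosome 6 (11 of 30). These are the extremes of 12 small counts, given without intervals. The outer 20% at each chromosome end held 35.7% of tandem partners (33.0 to 38.4%), against 35.5% of wider pairs, 37.5% of lone peaks and 32.8% of peaks in longer runs. Both partners were called in 63 of 214 pairs in these outer parts (29.4%, 23.7 to 35.9%) and in 90 of 386 pairs in the middle (23.3%, 19.4 to 27.8%), with overlapping intervals. Shares called over all peaks of each chromosome or part are not given here, so whether these differences belong to tandem pairs was not tested.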

How the data were processed

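The authors called peaks in each HSFA1a-Halo-tag library and deposited 1 narrowPeak list per replicate, with a q-value threshold of 0.05 in the peak names. The submitters' processing notes name Trimmomatic 0.38, Bowtie2 2.3.5, SAMtools 1.9 and MACS2 2.2.7.1. For ChIP-seq, the study's methods describe an input control and the removal of duplicates; for DAP-seq the control and the treatment of duplicates are not given in the sources used here. The deposited fold enrichment is a ratio of summit pileup to local background. The deposited −log10 values are those of the p-value and the q-value at the summit, and the deposited score is derived from the −log10 q. DNA had been amplified with 20 PCR cycles and read as single 75 bp reads.

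Replicate 1 listed 24176 peaks and replicate 2 listed 14932, of which 24164 and 14606 lay on numbered chromosomes and were used. The software was statsmodels 0.14.6 for intervals, pandas 2.3.3 for tables, matplotlib 3.10.9 for plots, scipy 1.17.1 for the Poisson tail and numpy 2.4.6, under Python 3.11.15. Pileup and background were solved from the formulas of MACS2 within a tolerance of 2e-05, with a factor of 0.981 on replicate 1 pileups. The solver disallowed backgrounds under 1 tag, and it recovered 100% of simulated pileups. A peak was called in replicate 2 when a peak there overlapped it by at least 1 bp. Shares have 95% Wilson intervals, which cover counting error only, and no test was made. The shares weighted by class of strength were added after the data were seen.

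Named pairs were the 5 strongest with both partners called (by the weaker partner), the 3 closest and 2 widest, the 3 most unequal, the 3 strongest with none called, and the 2 just inside and 2 just outside the limit; the rule also asked for pairs sharing 1 replicate 2 peak, and there were 0. Alternatives were other limits for gaps and runs, stricter q-values, other overlaps and measures of strength, and each replicate alone. The members, rules and comparisons were chosen with earlier results of these data known.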

Additional observations from a re-analysis of the deposited data

How the results depend on the processing

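Of 49 values under other settings, 12 moved and 37 did not. Counts of pairs were held to 1.5 times, shares to their Wilson interval and medians to the SD of the values from the 2 lists. Of the 37, 4 leave out replicate 2 and could not move. Medians from replicate 2 alone had to move, since 2 values always differ by more than their SD. With gaps of at most 500 bp there were 263 pairs with a median spacing of 521 bp, and with gaps of at most 2000 bp there were 1293 pairs, a median spacing of 1290 bp and 31.6% with both partners called; counts and spacing follow from the limit itself. Including longer runs gave 953 pairs. Leaving out each replicate in turn, the number of pairs was 263 to 600, the median spacing 729 to 765.5 bp, the median absolute log2 ratio of partners 0.58 to 0.71 and the median fold enrichment 4.48 to 6.22; leaving out replicate 2 changes nothing, since the rule reads replicate 1 only. The median absolute log2 ratio of partners was 1.47 with −log10 q in place of fold enrichment. The share of pairs with the same stronger partner was 95.5% where the replicate 1 pileup ratio was at least 1.5. No test between groups was made, and so no paired test either. Replicate 2 had an estimated 25.8% of the depth of replicate 1, and how far this sets the calls was not tested. Every replicate 2 share describes a single library.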
